A study of Mus musculus with 4 samples.

Results

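The replication-dependent histone genes of cultured mouse T-cell progenitors were described across cells and cultures. Members were chosen by symbol, as the features named Hist1h, Hist2h, Hist3h or Hist4h with at least 10 UMIs (unique molecular identifiers, here 1 per captured mRNA) over both mRNA matrices. Of 67 features so named, among 31053 in all, 63 were members. Hist2h2aa2 with 3 UMIs, Hist1h2ba with 5, Hist1h2aa with 1 and Hist1h2bq with 0 fell outside the minimum, and the members nearest to it were Hist1h1t with 42 UMIs, Hist1h2ah with 144 and Hist2h3c2 with 193. By class there were 6 genes of the linker histone H1, 16 of H2A, 16 of H2B, 12 of H3 and 13 of H4.

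Replication-dependent histones are made in step with DNA synthesis, so that new DNA can be wrapped as it appears. A pair each of H2A, H2B, H3 and H4 forms the nucleosome core, and H1 binds the linker DNA between cores. Their genes lie in clusters, mostly lack introns, and give mRNAs that end in a stem-loop bound by Slbp in place of a poly(A) tail; the mRNAs are degraded when DNA synthesis stops. Several members, H2B genes among them, are also known to give polyadenylated mRNAs. Early T-cell progenitors divide many times under Notch signals before they commit to the T lineage.

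The series holds 2 experiments of droplet single-cell RNA-seq (10x Chromium v3, which captures mRNA by poly(A) and reads the 3' end), each with 8 pooled cultures marked by antibody hashtags. Bone-marrow progenitors came from mice 8 to 10 weeks old and were grown on OP9-Dll1 stromal cells, which present a Notch ligand, with IL-7 and Flt3-ligand at 10 ng/ml each. In one arm, cells of B6.Bcl2 transgenic mice received MSCV-Runx1-mCherry or MSCV-empty-mCherry, were harvested on day 4 or 6, and were sorted as live Lineage-negative mCherry+ CD45+ cells. In the other, cells of B6.Cas9;Bcl2 transgenic mice received E42-gRunx1-humanNGFR with E42-gRunx3-mTurquoise, or control guides against luciferase in the same vectors, were harvested on day 5 or 8, and were sorted as live Lineage-negative mTurquoise+ hNGFR+ CD45+ cells. The Bcl2 transgene, which protects from cell death, was carried by every culture, the controls included. Runx1 and Runx3 are transcription factors of blood cell development. The sample labels give 4 to 5 days of culture for experiment 1 and 4 to 8 days for experiment 2, with vectors added on day 2. The hashtag columns name no condition, so no treated culture could be set against a control. Hashtags are numbered 1 to 8 in column order within each experiment; hashtag 1 of experiment 1 and hashtag 1 of experiment 2 are different cultures. Each hashtag is 1 culture with no replicate known, so the values carry no test, and their 95% intervals cover counting error only.

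Experiment 1 gave 8797 cells with 1 clear hashtag among 9967 barcodes, and experiment 2 gave 8335 among 10556; 39 barcodes occurred in both. Cells per hashtag numbered 691 to 1291 and 855 to 1312, and UMIs per hashtag 14502385 to 38067298 and 22272716 to 42684236. A cell held a median of 24753 UMIs in experiment 1 and 26338 in experiment 2, with medians by hashtag of 18057.5 to 29606 and 19543 to 31961. Kit, a defining gene of the labelled early stage, was at 54.3 to 89.0 CPM (UMIs per 1000000 UMIs) in experiment 1 and 26.4 to 56.5 CPM in experiment 2. All 12 early T progenitor markers were detected in both. Markers of other lineages were present as well: the summed granulocyte and monocyte list ran from 224 to 12859 CPM over the hashtags of experiment 2. In bulk sums such as these, fewer cells of a type and less RNA per cell cannot be told apart.

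All 63 members were matched to RefSeq genes (build GRCm38.p6). On chromosome 13, 51 lay between 21715711 and 23764412, 9 lay on chromosome 3 between 96219885 and 96270192, 2 on chromosome 11 between 58948911 and 58955192, and 1 on chromosome 6 from 136803993 to 136804431. The 120 bases before the start site are printed for 6 members that the results turn on, 5′ to 3′ on the strand of the gene. They are Hist1h2ap (chr13:21833476-21833595, minus strand), Hist1h2an (chr13:21787249-21787368, minus strand), Hist1h1b (chr13:21780626-21780745, minus strand), Hist1h1a (chr13:23763548-23763667, plus strand), Hist1h4d (chr13:23581448-23581567, plus strand) and Hist3h2a (chr11:58954565-58954684, plus strand). Capitals mark the CCAAT box (on the other strand read as ATTGG), the TATA box (searched by the letters TATAAA or, for the other strand, by TTTATA), and the octamer (searched as ATTTGCAT, and for the other strand as ATGCAAAT). The first 2 are H2A genes whose counts differed between the experiments. The 2 H1 genes were more than 3 times as high in cells rich in S-phase genes. The last 2 were lower in cells rich only in S-phase genes than in cells rich only in G2 and mitosis genes.
Hist1h2ap: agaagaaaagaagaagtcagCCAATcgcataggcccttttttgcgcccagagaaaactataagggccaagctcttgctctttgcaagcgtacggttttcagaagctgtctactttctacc
Hist1h2an: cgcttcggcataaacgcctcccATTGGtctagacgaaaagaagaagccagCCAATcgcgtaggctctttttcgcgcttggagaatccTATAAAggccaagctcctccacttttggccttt
Hist1h1b: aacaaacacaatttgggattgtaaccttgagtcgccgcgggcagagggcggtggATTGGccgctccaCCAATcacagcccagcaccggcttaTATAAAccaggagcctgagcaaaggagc
Hist1h1a: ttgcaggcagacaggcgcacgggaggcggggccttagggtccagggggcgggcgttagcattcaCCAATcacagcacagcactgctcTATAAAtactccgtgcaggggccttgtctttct
Hist1h4d: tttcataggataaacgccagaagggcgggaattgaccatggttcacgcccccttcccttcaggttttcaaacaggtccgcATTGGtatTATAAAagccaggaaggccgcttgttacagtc
Hist3h2a: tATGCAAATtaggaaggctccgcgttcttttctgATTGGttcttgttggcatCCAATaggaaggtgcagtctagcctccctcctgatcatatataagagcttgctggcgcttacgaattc
Each of the 6 held a CCAAT box on one of the strands, 4 held a TATA box, and only Hist3h2a held the octamer within these bases.

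A window of 250 bases before the start was available for 58 members; Hist1h2bc, Hist2h2be, Hist2h4, Hist1h3f and Hist1h3a had none. For each motif, a member was counted if any of its windows held it, whereas the share of all RefSeq windows is per window. The CCAAT box, bound by NF-Y, was in 47 of the 58, and in 33.8% of 32851 RefSeq windows of the same length. It was in 6 of 6 H1 windows, 16 of 16 H2A, 14 of 14 H2B, 8 of 10 H3 and 3 of 12 H4 windows. A TATA box was in 27 of 58 member windows and 12.4% of all windows. The octamer, bound by Oct1 at H2B promoters, was in 12 of 58 and in 1.60% of all windows. It was in 6 of 16 H2A and 6 of 14 H2B windows and in 0 of the H1, H3 and H4 windows. In 8 pairs described below, the windows of an H2A and an H2B gene overlap, and both strands were searched. A motif in the overlap is counted for both genes, so the class counts are not counts of separate sites. The whole window of Hist1h2ac (chr13:23683960-23684209, minus strand), the H2A gene beside Hist1h2bc, shows all 3 motifs, with the octamer 130 bases, the nearest CCAAT box 69 bases and the TATA box 32 bases before the start.
Hist1h2ac: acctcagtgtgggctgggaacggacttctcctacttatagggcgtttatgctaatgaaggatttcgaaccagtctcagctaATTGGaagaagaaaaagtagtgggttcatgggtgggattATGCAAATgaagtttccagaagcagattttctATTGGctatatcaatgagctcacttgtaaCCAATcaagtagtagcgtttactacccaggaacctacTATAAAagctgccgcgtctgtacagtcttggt
A match here is a run of letters, not a measured binding site.

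H2A and H2B genes were often neighbours that start in opposite directions. Among the 58 members with a window, 8 such divergent pairs lay within 500 bases (16 members), and all 8 joined an H2A gene with an H2B gene. The starts of Hist1h2ap and Hist1h2br lay 268 bases apart, those of Hist1h2an and Hist1h2bp 240, those of Hist1h2ae and Hist1h2bg 180, and those of Hist1h2ag and Hist1h2bj 249. Levels of different genes were not compared, because capture by poly(A) need not be equal for mRNAs that mostly lack it.

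Summed over members, histone UMIs made up 1428 CPM in experiment 1 and 1345 CPM in experiment 2, which is the share of captured mRNAs that came from the 63 genes, per 1000000. In experiment 1, hashtags 1 to 8 held 1544, 1535, 1589, 1570, 1233, 1169, 1275 and 1233 CPM. Hashtags 1 to 4 were all above hashtags 5 to 8, and the highest was 1.36 times the lowest (95% interval 1.34 to 1.38). In experiment 2, hashtags 1 to 8 held 1241, 1221, 1353, 1517, 1191, 1139, 1680 and 1542 CPM, with a ratio of 1.48 (1.45 to 1.498). Hashtag 7 was highest there and hashtag 6 lowest.

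**Figure D1:**
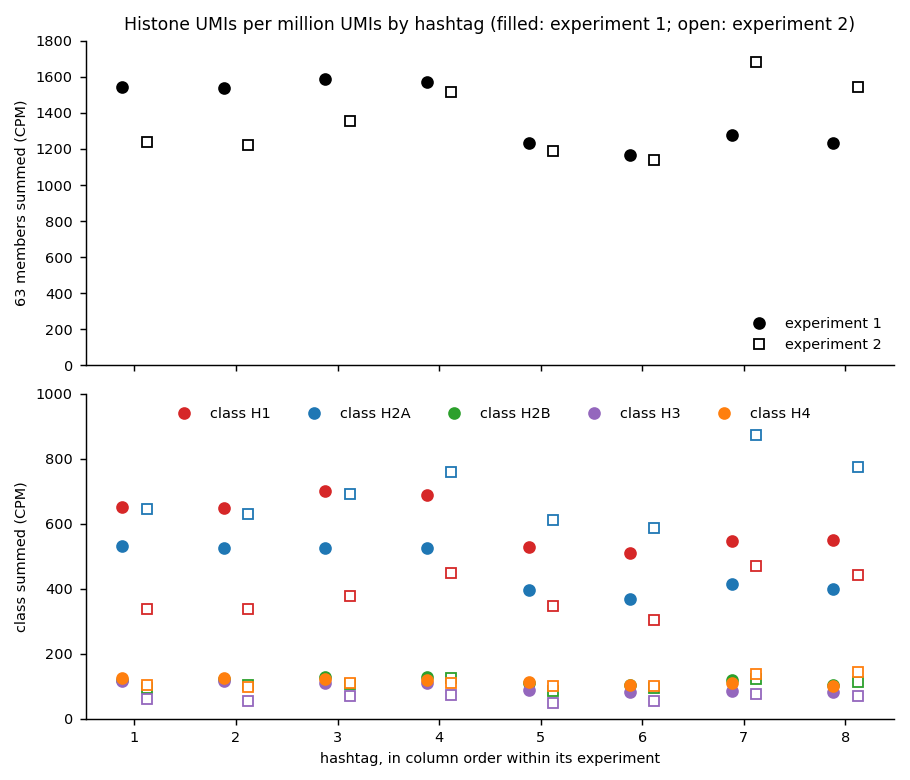
Histone UMIs per 1000000 UMIs (CPM, vertical axes) in each hashtag (horizontal axis), for the sum of 63 members above and each histone class below; filled symbols are experiment 1 and open symbols experiment 2, 1 culture per symbol. In experiment 1 hashtags 1 to 4 lie at 1535 to 1589 CPM and hashtags 5 to 8 at 1169 to 1275 CPM.

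Some other values moved with this order in experiment 1. The summed G2 and mitosis list was at 8278 to 9048 CPM in hashtags 1 to 4 and 7089 to 7294 CPM in hashtags 5 to 8. Il2ra, the CD25 gene that marks a later progenitor stage, was at 162 to 207 and 417 to 495 CPM. The summed early T progenitor list, which holds Il2ra, overlapped, at 506 to 1157 and 876 to 1226 CPM. So did others of its genes: Kit at 59.5 to 89.0 and 54.3 to 70.6, Tcf7 at 103 to 273 and 95.3 to 174, and Cd3e at 0.85 to 7.21 and 1.24 to 4.25 CPM. The summed S-phase list overlapped, at 5387 to 5790 CPM in hashtags 1 to 4 and 4760 to 5635 CPM in hashtags 5 to 8. The erythroid and megakaryocyte list (8 of 8 markers detected, none at 0) was at 663 to 1392 CPM in hashtags 1 to 4 and 2233 to 3311 CPM in hashtags 5 to 8. In experiment 1, 22 cells (0.25%) passed the gate for these markers alone, described below. Which cells or free RNA gave these UMIs was not tested. In experiment 2 the histone sum was highest in hashtags 4, 7 and 8. The G2 and mitosis list was at 8272, 8318 and 8273 CPM there and 6961 to 7407 CPM in the other 5. The S-phase list overlapped, at 4760, 4808 and 4328 CPM against 4045 to 4755 CPM. The early T progenitor list was at 1838 CPM in hashtag 4, 1772 in hashtag 7, 883 in hashtag 8, and 279 to 650 in the other 5. The part of all these values in the histone sums was not tested.

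Few members differed 2-fold between hashtags over all cells. Of the members with at least 400 UMIs in an experiment, 5 of 45 reached a 2-fold ratio of highest to lowest hashtag in experiment 1, beside 15.8% of all 10244 genes tested, and 3 of 43 in experiment 2, beside 24.5% of 10691. The median ratio was 1.56 and 1.61 for members, and 1.35 and 1.44 for all genes. By class, 0 of 5 H1, 1 of 11 H2A, 2 of 13 H2B, 0 of 8 H3 and 2 of 8 H4 members reached it in experiment 1. In experiment 2 it was 0 of 5 H1, 0 of 11 H2A, 1 of 13 H2B, 1 of 8 H3 and 1 of 6 H4. Without cells in the marker gates of other lineages the counts were 9 of 39 (13.5% of all genes) and 7 of 31 (19.4%). After thinning each cell to 5000 UMIs, which leaves fewer UMIs per gene, they were 18 of 45 (26.9%) and 20 of 43 (35.9%).

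Hist3h2ba, an H2B gene of the chromosome 11 cluster, had the largest ratio in both experiments among the members with at least 400 UMIs. It was at 2.42, 1.15, 4.28, 3.51, 1.66, 2.48, 2.07 and 2.41 CPM in hashtags 1 to 8 of experiment 1 (ratio 3.73, interval 2.61 to 5.42). In experiment 2 it was at 2.42, 4.84, 2.37, 11.2, 2.76, 1.65, 6.08 and 3.59 CPM (6.79, 4.93 to 9.54), with hashtag 4 far above the rest. Cd3e, a T-cell receptor component, was also highest in hashtag 4 of experiment 2, at 38.3 CPM, against 1.63 to 21.0 CPM in the other 7. So were the summed lists of mast cells and basophils (1327 against 147 to 452 CPM, 7 of 7 markers detected), of early T progenitors (1838 against 279 to 1772 CPM) and of innate lymphoid cells (2779 against 585 to 2761 CPM, 9 of 9 detected), and their part in the Hist3h2ba level was not tested. Hist1h2bc, an H2B gene, was at 14.4, 16.8, 19.9, 16.3, 18.9, 20.7, 32.9 and 24.1 CPM in experiment 1 (2.29, 2.05 to 2.56). Its highest hashtags, 7 and 8, were among the 4 lowest in the histone sum. In experiment 2 it ran from 20.2 to 30.1 CPM, with a median of 22.7.

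Other members also reached 2-fold. In experiment 1 these were Hist1h4b at 0.97 to 2.55 CPM (ratio 2.64, interval 1.49 to 5.05), Hist3h2a at 3.81 to 7.93 (2.08, 1.66 to 2.61) and Hist1h4a at 1.17 to 2.35 (2.00, 1.18 to 3.59), of which the last was named after its value was seen. The lowest hashtag held only 14 UMIs of Hist1h4b and 17 of Hist1h4a. In experiment 2 Hist1h3a ran from 5.49 to 11.3 CPM (2.05) and Hist1h4c from 2.73 to 5.48 (2.01). Leaving out 1 hashtag brought Hist1h2bc and all of these under 2-fold: Hist1h2bc to 1.67 without hashtag 7, Hist3h2a to 1.52 without hashtag 7 and 1.78 without hashtag 1, Hist1h4b to 1.95 without hashtag 8, and Hist1h4a to 1.71 without hashtag 8 and 1.82 without hashtag 2 in experiment 1. In experiment 2 Hist1h3a came to 1.79 without hashtag 5 and 1.94 without hashtag 7, and Hist1h4c to 1.59 without hashtag 5 and 1.79 without hashtag 8. Hist3h2ba kept its mark, at 2.58 without hashtag 2 of experiment 1 and 3.69 without hashtag 4 of experiment 2. The narrowest range among the named members was that of Hist1h4i, an H4 gene, at 43.6 to 49.9 CPM with a median of 47.4 in experiment 1.

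The 5 H1 genes with enough UMIs made up most of one class. Hist1h1b ranged from 321 through a median of 373 to 450 CPM in experiment 1, and from 186 through 231 to 299 CPM in experiment 2. Hist1h1e ranged from 103 to 138 CPM (median 119.9) and from 54.4 to 85.3 (67.7). Hist1h1a was at 31.2 to 46.6 CPM (39.4) and 22.4 to 30.2 (26.5), Hist1h1c at 28.5 to 41.1 (34.9) and 19.3 to 25.9 (20.9), and Hist1h1d at 26.3 to 35.0 (32.7) and 16.6 to 30.5 (19.9). Hist1h1t, the testis-specific H1, was present with 42 UMIs in all.

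Cells were then ordered by 2 lists of cell-cycle genes that hold no histone member, to ask how the members followed DNA synthesis. Each of the 8602 and 8150 cells with at least 5000 UMIs was thinned to 5000, and the UMIs of 45 S-phase genes (such as Mcm2 and Pcna) and of 52 G2 and mitosis genes (such as Cdk1 and Top2a) were counted. The 25% of cells with the highest S-phase count (S-high cells) were set against the 25% with the lowest (S-low cells). In experiment 1 the summed histone level was 1921 CPM in S-high and 935 CPM in S-low cells, a ratio of 2.06 (2.03 to 2.08). The ratio within single hashtags ran from 1.54 to 2.54 and was above 1 in 8 of 8. In experiment 2 it was 1844 against 837 CPM, a ratio of 2.20 (2.18 to 2.23), with 1.87 to 2.96 over hashtags. S-high cells also held more UMIs per cell, with medians of 26086 against 18016 and 27235 against 19005.

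Counted by member, 24 of 45 in experiment 1 were at least 1.5 times as high in S-high as in S-low cells, beside 3.65% of all genes tested, and 2 were lower by that factor, beside 8.10%. In experiment 2 these were 26 of 43, beside 5.89%, and 3, beside 20.6%. The median member ratio was 1.51 and 1.66, and that of all genes 0.97 and 0.93. With cells in the marker gates of other lineages left out, 27 of 39 members passed in experiment 1 (4.43% of all genes) but 13 of 31 in experiment 2 (4.05%), with median member ratios of 1.65 and 1.47. That step left 4958 and 3522 cells.

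H1 and H2A genes led. In the S-phase comparison 4 of 5 H1, 8 of 11 H2A, 5 of 13 H2B, 5 of 8 H3 and 2 of 8 H4 members were higher in experiment 1, and 4 of 5, 9 of 11, 5 of 13, 5 of 8 and 3 of 6 in experiment 2. Hist1h1b stood at 594 CPM in S-high and 181 CPM in S-low cells of experiment 1 (ratio 3.28, 3.21 to 3.37) and at 384 and 102 CPM in experiment 2 (3.75, 3.63 to 3.87). Within hashtags its ratio was 2.11 to 4.40 and 2.72 to 5.95, above 1 in all 16. Hist1h1a had ratios of 3.27 (3.04 to 3.54) and 4.91 (4.44 to 5.44). Hist1h1c, in contrast, had 1.24 (1.16 to 1.33) and 1.04 (0.96 to 1.12), so 1 H1 gene stayed under the 1.5-fold mark in both experiments.

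Among the core histones, Hist1h2ap had S-phase ratios of 2.16 and 2.46, Hist1h2ae 2.24 and 2.41, Hist1h2an 2.55 and 2.73, and Hist2h2ac 2.12 and 2.35, each higher in 8 of 8 hashtags of both experiments. For H4, Hist2h4 reached 3.75 (2.63 to 5.47) in experiment 1 from 447 UMIs, while Hist1h4i was at 1.38 and 1.57, Hist1h4d at 1.36 and 1.39, and Hist1h4c at 1.39 and 1.28. Of H3, Hist1h3c was at 1.40 and 1.32, Hist1h3e at 1.28 and 1.46, and Hist1h3a at 1.57 and 1.91. The H2B member Hist1h2bj was at 1.38 and 1.32.

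A few members ran the other way. Hist3h2a, the H2A gene of chromosome 11, was at 3.70 CPM in S-high and 9.61 CPM in S-low cells of experiment 1 (0.39, 0.33 to 0.46), and at 4.22 and 13.6 CPM in experiment 2 (0.31, 0.27 to 0.36). It was lower in S-high cells in all 16 hashtags. Hist1h2bc was at 16.3 against 30.3 CPM (0.54, 0.49 to 0.58) and 19.2 against 36.1 CPM (0.53, 0.49 to 0.58), lower in 6 of 8 and in 8 of 8 hashtags. Hist3h2ba was at 0.93 (0.73 to 1.19) and 0.65 (0.54 to 0.77), and Hist1h2br, the divergent partner of Hist1h2ap, at 0.88 (0.67 to 1.16) and 1.22 (0.96 to 1.54); 3 of these 4 intervals of Hist3h2ba and Hist1h2br include 1.

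Ranked by the G2 and mitosis list instead, in the same way, the cells differed more. The summed level was 1714 against 663 CPM in experiment 1 (2.58, 2.55 to 2.62) and 1685 against 479 CPM in experiment 2 (3.51, 3.46 to 3.57), with hashtag ratios of 1.80 to 4.28 and 2.11 to 4.70. Of the members, 38 of 45 were higher, beside 4.73% of all genes, and 1 lower, beside 5.83%. In experiment 2, 39 of 43 were higher, beside 5.10%, and 1 lower, beside 15.5%. The median member ratio was 2.07 and 2.95. Median UMIs per cell again differed, at 31090 against 18070 and 31641 against 18130. The 1 lower member was Hist1h2bc in both, at 0.30 (0.27 to 0.32) and 0.27 (0.25 to 0.29), below 1 in all 16 hashtags. Hist3h2a, low in S-high cells, had no difference here beyond its interval. It was at 6.34 against 6.34 CPM (interval of the ratio 0.85 to 1.17) and 9.32 against 9.89 CPM (0.83 to 1.07). The largest ratio, looked up afterwards, was that of the H2A gene Hist1h2af in both experiments, at 5.51 (4.12 to 7.51) and 10.3 (6.99 to 15.8).

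**Figure D2:**
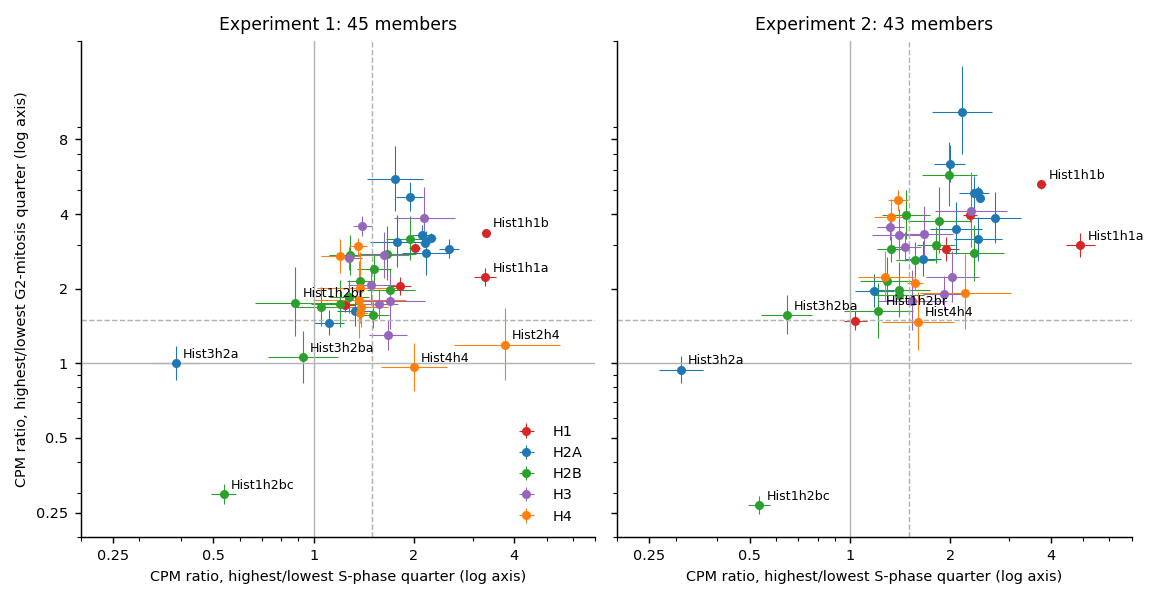
Ratio of CPM in the 25% of cells with the highest count to the 25% with the lowest, by the S-phase list (horizontal, log axis) and by the G2 and mitosis list (vertical, log axis) for the 45 and 43 members with at least 400 UMIs; bars are 95% counting intervals, colours are histone classes, and dashed lines mark 1.5. Most members lie above 1 on both axes, while Hist1h2bc lies below 1 on both and Hist3h2a below 1 for S phase.

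Splitting cells at the median of each list gave 4 ranges. Summed histone levels were 651 CPM where both lists were low, 1427 CPM with only the S-phase list high, 2073 CPM with both high and 1383 CPM with only the G2 list high in experiment 1. In experiment 2 they were 535, 1264, 2124 and 1326 CPM. Cells high on both lists held the highest level of 38 of 45 members, beside 27.1% of all genes outside the lists, and of 37 of 43, beside 20.9%. Hist1h2bc was highest with both low, at 38.1 CPM, then 20.1, 11.9 and 14.7 CPM in the order above, and at 46.4, 25.7, 13.9 and 16.7 CPM in experiment 2. Hist3h2a was also highest there, at 6.94 CPM against 3.12 to 6.30 and at 10.4 against 3.70 to 8.67. Hist4h4, named after its values were seen, was the 1 member that peaked with only the S-phase list high in both experiments, at 5.08 and 3.23 CPM.

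**Figure D3:**
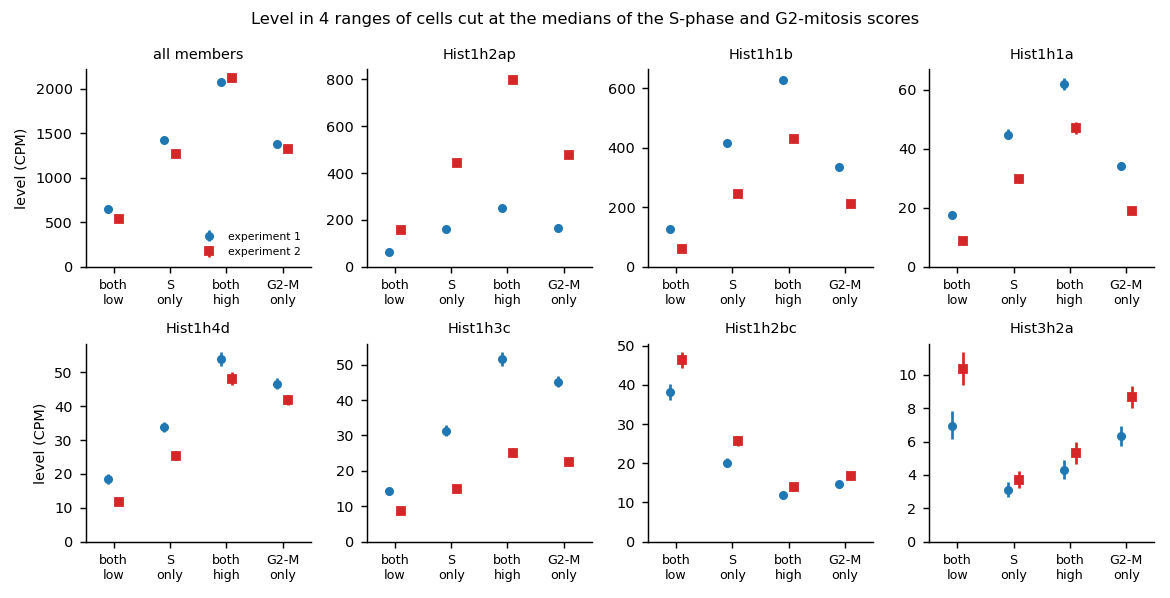
Histone CPM in 4 ranges of cells made by the medians of the S-phase and G2 lists, for the sum and for members named in the text, by experiment, with 95% counting intervals. The sum goes from 651 and 535 CPM with both lists low to 2073 and 2124 CPM with both high, and Hist1h2bc goes the other way.

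Members differed between the 2 middle ranges, which are cuts of 2 counts and not phases assigned to cells. With only S high against only G2 high, Hist1h1a was at 1.31 (1.24 to 1.39) and 1.58 (1.48 to 1.697), higher in 7 and 8 of 8 hashtags. Hist1h1b was at 1.25 (1.23 to 1.27) and 1.16 (1.14 to 1.19). Of the tested H1 members, 3 of 5 were above 1 in each experiment, and the lowest ratios were 0.87 and 0.83. The summed H3 class lay the other way, at 0.84 (0.81 to 0.87) and 0.83 (0.79 to 0.86), higher in 0 of 16 hashtags. Of its tested members, 4 of 8 were above 1 in experiment 1 and 2 of 8 in experiment 2. The share of all genes above 1 was not taken for this comparison, so these H1 and H3 counts describe the members only. Hist1h3c was at 0.70 and 0.66, Hist1h3e at 0.76 and 0.79, and Hist1h4d, an H4 gene, at 0.73 (0.69 to 0.77) and 0.60 (0.57 to 0.64), each higher in 0 of 16 hashtags. Hist3h2a was at 0.50 (0.42 to 0.59) and 0.43 (0.36 to 0.50). The promoters of Hist1h1a and Hist1h4d printed above both hold a TATA box and a CCAAT box on one strand or the other. Whether motifs go with these ratios over the members was not tested.

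The share of cells with both lists low was 16.02, 16.5, 18.4, 17.3, 22.2, 24.2, 43.9 and 35.4% in hashtags 1 to 8 of experiment 1, and 17.7 to 31.2% in experiment 2. Within a range the hashtags still differed. In experiment 1 the sum ran from 450 to 906 CPM with both low, 1176 to 1649 with only S high, 1658 to 2345 with both high and 1162 to 1565 with only G2 high. In experiment 2 the ranges were 416 to 728, 1091 to 1486, 1688 to 2570 and 1113 to 1717 CPM. Hashtags 7 and 8 of experiment 1, at 457 and 450 CPM, were lowest with both lists low, yet at 2265 and 2211 CPM they were above hashtags 1 and 2 (1947 and 1967 CPM) with both high.

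Per cell, the signal was spread widely but unevenly. After thinning to 5000 UMIs, 89.7% of cells in experiment 1 and 87.7% in experiment 2 held at least 1 histone UMI (98.2% and 97.6% unthinned). The median cell held 4, the upper 25% of cells held at least 11 and 10, and the highest counts were 51 and 49. The 25% of cells with the most held 59.3% and 60.9% of all histone UMIs. With both lists low the share of cells with a UMI was 80.7% and 73.8%, and with both high 94.7% and 96.1%. No class of cells here is known to lack these mRNAs, so the share that free RNA gives was not measured. Single members were sparser: after thinning, Hist1h1b was seen in 52.4% and 44.3% of cells, Hist1h2ap in 41.3% and 59.5%, Hist1h2bc in 10.4% and 11.8%, and Hist3h2ba in 1.22% and 2.43%.

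**Figure D4:**
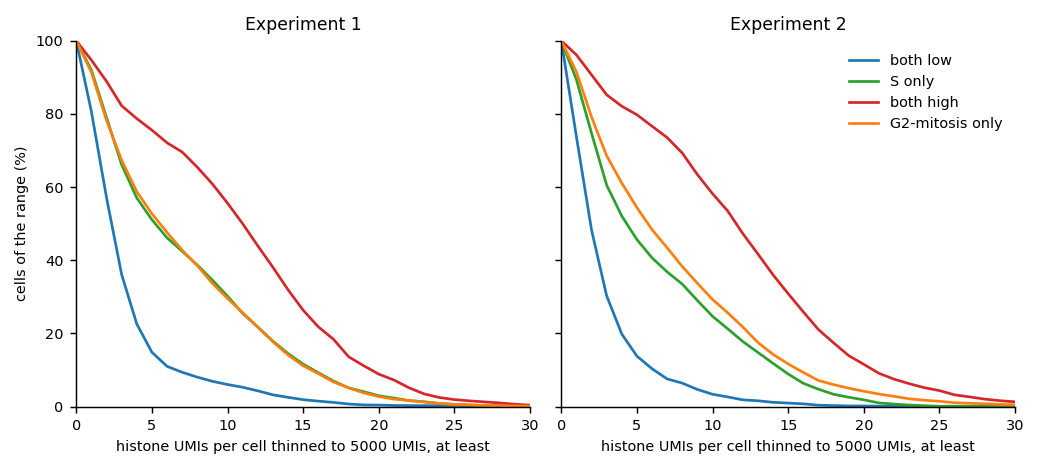
Share of cells (percent, vertical axis) with at least a given number of histone UMIs (horizontal axis) after thinning each cell to 5000 UMIs, by the 4 ranges, in each experiment. Medians are 2 and 1 UMIs with both lists low and 10 and 11 with both high.

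Across cells, the thinned histone count and the S-phase count had a Pearson r of 0.35 (n = 8602) and 0.34 (n = 8150), and with the G2 count 0.34 and 0.44. For Hist1h2bc these were -0.12 and -0.12, and -0.11 and -0.12. Both counts of a cell come from the same library and thinned UMIs, and the values are descriptions only.

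The 2 experiments, 1 library each, differed in which members carried the sum. The total was 0.94 times as high in experiment 2 (0.94 to 0.95), or 1.01 with the cells of other marker gates left out. Hist1h2ap went from 166 to 482 CPM, a ratio of 2.90 (2.86 to 2.93). Its hashtag range was 134 to 185 CPM in experiment 1 (median 165) and 409 to 618 CPM in experiment 2 (median 466). Without Hist1h2ap the rest of the members went from 1262 to 863 CPM, a ratio of 0.68. By class, H1 went from 617 to 378 CPM (0.61), H2A from 475 to 689 (1.45, but 0.67 without Hist1h2ap, from 309 to 207), H2B from 118 to 104 (0.88), H3 from 102 to 62.6 (0.61) and H4 from 115.9 to 111 (0.96).

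Hist1h2an, another H2A gene of chromosome 13, went the other way, from 39.8 to 6.59 CPM (0.17, 0.16 to 0.17). In experiment 1 its hashtags held 29.6 to 47.6 CPM (median 37.6), and in experiment 2 4.71 to 8.37 CPM (6.60). Of the UMIs of Hist1h2ap and Hist1h2an together, Hist1h2an took 17.2 to 20.8% over the hashtags of experiment 1 and 1.14 to 1.504% over those of experiment 2, with no overlap. Summed, the 2 genes went from 206 to 489 CPM, a ratio of 2.37 (2.34 to 2.40). Histone genes hold near-identical copies, and how reads that match several copies were counted is not given in the sources used here, so the split between the 2 genes is uncertain. Which part of the experiment, library or read set goes with the change was not tested.

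Over all members with at least 400 UMIs in both together, 3 of 53 were at least 1.5 times higher in experiment 2, beside 8.20% of 11501 genes, and 13 were lower by that factor, beside 7.83%. The median member was at 0.78 and the median gene at 0.92. With the other marker gates left out, 4 of 42 members were higher (1.72% of 9999 genes) and 7 lower (10.7%). Over all cells, the higher ones were Hist1h2ap, Hist3h2ba (2.51 to 4.12 CPM, 1.64, interval 1.48 to 1.82) and Hist1h2br (2.00 to 3.03 CPM, 1.52, 1.34 to 1.71). Lower over all cells were 5 of 5 H1, 2 of 13 H2A, 1 of 16 H2B, 3 of 10 H3 and 2 of 9 H4 members. The H1 ratios ran from 0.57 to 0.64, Hist2h2ac went from 36.9 to 17.2 CPM (0.47, 0.45 to 0.48), Hist1h3c from 37.6 to 18.5 CPM (0.49, 0.48 to 0.51) and Hist2h4 from 2.02 to 1.15 CPM (0.57, 0.49 to 0.66).

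Hashtag ranges showed the same order for some members. All 8 hashtags of experiment 2 lay above all 8 of experiment 1 for 2 of 53 members (Hist1h2ap, and Hist2h2aa1, named for this count), beside 3.73% of all genes. All 8 lay below for 10 members, beside 17.0%. The 10 were Hist1h1b, Hist1h1e, Hist1h1a, Hist1h1c, Hist1h3c, Hist1h3e, Hist2h2ac, Hist1h2an, Hist1h2bg and Hist2h4. These shares are near those of all genes. Hist1h4i, Hist1h4d and Hist1h2bj overlapped between experiments, at 1.09, 0.84 and 0.84.

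**Figure D5:**
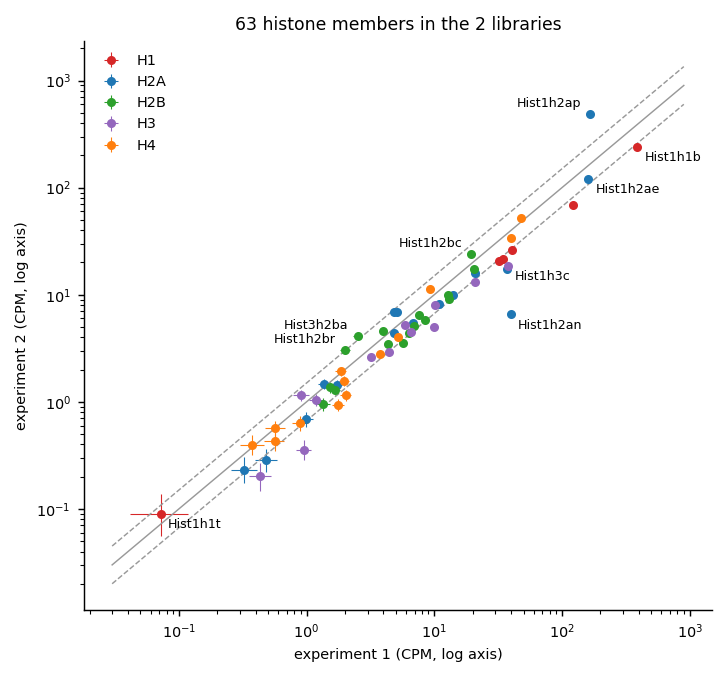
Level of each of the 63 members in experiment 1 (horizontal, CPM, log axis) and experiment 2 (vertical, CPM, log axis), summed over cells with a hashtag; bars are 95% counting intervals, colours are histone classes, and dashed lines mark 1.5-fold about the line of equal levels. Hist1h2ap (166 and 482 CPM) lies above the band and Hist1h2an (39.8 and 6.59 CPM) farthest below it.

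Cells were also gated by markers of each lineage (at least 3 markers with at least 2 UMIs each, or 2 for early T progenitors and no other gate). The early T progenitor gate held 3855 and 2738 cells (43.8% and 32.8% of cells), and histone levels there were 1430 CPM (1423 to 1438) and 1478 CPM (1468 to 1487). The innate lymphoid gate was at 1668 and 1657 CPM (491 and 442 cells), and the granulocyte and monocyte gate at 1515 and 1368 (394 and 655 cells). The mast and basophil gate was at 1423 and 1373 CPM (407 and 176 cells), and the erythroid and megakaryocyte gate at 1822 (22 cells) and 1372 (6 cells). The dendritic gate was at 1376 and 1261 CPM, with 1746 and 2118 cells (19.8% and 25.4%). Cells with stromal markers were lowest, at 474 CPM (12 cells) and 455 CPM (85 cells), with S-phase lists at 2340 and 1579 CPM against 5543 and 4980 CPM in the early T gate. In experiment 2 the 49 cells with B-lineage markers were highest, at 2696 CPM (2586 to 2810), of which Hist1h2ap gave 954 and Hist1h1b 554 CPM; experiment 1 held 3 such cells. Hist1h2bc was at 39.6 CPM (33.7 to 46.2) in stromal cells and 21.2 CPM (20.1 to 22.3) in early T cells of experiment 2. Cells positive for several lineages made up 8.68% and 15.4%, with medians of 29306.5 and 36524 UMIs; cells of 2 hashtags were removed, but cells of 1 hashtag joined in a droplet were not sought.

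Annotated gene intervals set some H2B members apart. Of the 63, 5 spanned more than 1000 bases, and all 5 were H2B genes: Hist1h2be (37455 bases), Hist1h2bp (14079), Hist1h2bc (8282), Hist1h2br (3788) and Hist2h2be (2667). The other 58 spanned 375 to 911 bases. A long interval holds bases outside the single coding exon, so UMIs there need not come from the coding unit. Hist1h2bc, on chromosome 13 from 23684199 to 23692480, is one of these. The intervals of Hist3h2ba, Hist3h2a and Hist1h2be overlapped another RefSeq gene (Gm51864, Trim17 and Gm33387), and whether the counting used strand is not given in the sources used here, so their UMIs may be shared.

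Other genes of histone supply differed from list to list. Replication-independent histones are not confined to S phase in their use. Of these, 0 of 11 were 1.5 times higher in S-high cells in either experiment (3.65% and 5.89% of all genes). Lower by that factor were 2 of 11 and 4 of 11 (8.10% and 20.6% of all genes), with lowest ratios of 0.33 and 0.21. By the G2 list 2 of 10 and 3 of 10 were higher (4.73% and 5.10% of all genes), and 1 of 10 was lower in each experiment (5.83% and 15.5%). The 3 with the most UMIs had S-phase ratios near 1: H2afz 1.15 and 1.28, H3f3a 0.95 and 0.97, H3f3b 1.08 and 1.12. H2afx, the variant phosphorylated at DNA breaks and named after its value was seen, was at 0.56 and 0.59 by the S-phase list and 3.21 and 5.21 by the G2 list. Of the genes that transcribe and process histone mRNA, 4 of 20 and 7 of 20 were that much higher in S-high cells, and 1 of 23 in each experiment by the G2 list (4.73% and 5.10% of all genes). The most counted were Slbp, the stem-loop binding protein, itself in the S-phase list, and Yy1 (1.04 and 1.12) and Srrt (1.14 and 1.28). Slbp was at 0.88 and 0.96 by the G2 list, whereas the histone sum was at 2.58 and 3.51. Histone chaperones, which carry histones to DNA, were higher in S-high cells for 4 of 20 and 10 of 20, with Npm1 at 1.18 and 1.42, Set at 1.21 and 1.502 and Nap1l1 at 1.38 and 1.54.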

How the data were processed

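Each experiment gave a gene by barcode matrix of UMI counts and a matrix of hashtag counts; the deposited counts are raw whole numbers. Per the submitters' processing notes, they came from Cell Ranger 3.0.0 with mm10 (GRCm38). Cells had to show 500 genes or more and less than 10% of UMIs from mitochondrial genes, and a cell was given the hashtag with at least 50 counts and at least 3 times the second. Counts were summed per hashtag, cell range or marker gate and divided by all UMIs of those cells (CPM). Intervals are exact 95% Poisson or conditional binomial intervals for counting error only; each experiment is 1 library and each hashtag 1 culture of unnamed condition, so no test was made. Members under 400 UMIs were left out of counts past 1.5-fold or 2-fold. Each such count over all members in the main setting stands beside that of all genes so tested. For most other settings the share of all genes was not computed, so those counts show only how the main count moved. Genes of a cell-cycle list were left out of comparisons ordered by it. Cell-cycle counts used cells thinned once to 5000 UMIs (seed 1). A score range is a cut through a continuum: 275 and 249 cells of experiment 1, and 243 and 220 of experiment 2, lay at the upper and lower S-phase limits.

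Named members were the 2 most counted of each class, the 12 most counted in all, the 3 with the largest hashtag ratio, and the 3 highest and 3 lowest in S-phase ratio in each experiment; others are said to be chosen after their values were seen. Members, lists and tests were chosen with earlier results of these data known. The alternatives tried were other cell, hashtag and depth limits, gates, count minimums, folds, scalings by edgeR 4.0.16 (TMM) and DESeq2 1.42.0 (size factors), and leaving out each hashtag. Python 3.11.15 with numpy 2.4.6, scipy 1.17.1 and pandas 2.3.3 was used, and the ratio and interval code was tested on simulated data. Sequences are from RefSeq promoter windows, GRCm38.p6; no window reaches the 3' ends, which were not analysed here.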

Additional observations from a re-analysis of the deposited data

Results flagged for a closer look

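Hist3h2ba in experiment 2 stood at 11.2 CPM in hashtag 4, far from the other 7 hashtags at 1.65 to 6.08 CPM; the gap was 0.535 of the whole range. It was the 1 such value among 54 sets of 8 hashtags examined; chance gives about 1 in 20 sets, which is more than were found. Cd3e and the mast cell and basophil list were also highest in that hashtag.

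Barcodes outside the comparisons held histone UMIs too. Those that passed the cell filter but had no clear hashtag were at 1476 CPM in experiment 1 (535 barcodes) and 1221 CPM in experiment 2 (1879 barcodes). Those that failed the filter were at 750 CPM (635 barcodes) and 744 CPM (342 barcodes).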

How the results depend on the processing

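Hashtag conditions are unknown and each is 1 culture, so the spread between like cultures was not measured, intervals cover counting error only, and no direction can be tied to Runx factors. No paired analysis was possible because the hashtags carry no replicate numbers or groups. No experiment or S-phase ratio of a named member that was past 1.5-fold crossed 1 under an alternative run. The G2 ratio of Hist3h2a, whose intervals included 1, became 0.81 and 1.05 without other gates. Of the sums, the experiment ratio came to 1.01 in 1 setting, on the other side of equality.

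The highest-to-lowest hashtag ratio of the sum was 1.36 in experiment 1 and became 1.32 with a stricter cell filter (1000 genes, less than 5% mitochondrial), 1.39 without the 5% of cells with the most UMIs, 1.46 without other marker gates, 1.33 with TMM, 1.34 with DESeq2 size factors and 1.38 as a mean over cells. In experiment 2 it was 1.48 and became 1.43 without the cells with the most UMIs, 1.52 with TMM and 1.53 with DESeq2. The count of members at 2-fold, 5 in experiment 1, became 2 with the stricter cell filter, 3 with looser hashtags, 3 without the cells with the most UMIs, 9 without other gates, 18 thinned, 11 and 2 at minimums of 100 and 1000 UMIs, and 27 at 1.5-fold. In experiment 2, 3 became 5 with stricter hashtags, 5 without the cells with the most UMIs, 7 without other gates, 7 with TMM, 7 with DESeq2, 20 thinned, 10 as a mean over cells, 12 and 1 at the other minimums, and 29 at 1.5-fold. The share of all genes at 2-fold was computed only without other gates and thinned, so the other counts cannot be set against it.

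Experiment 2 against 1 stood at 0.94 for the sum and became 0.91 with stricter cells, 0.936 and 0.955 with looser and stricter hashtags, 0.957 without the cells with the most UMIs, 1.01 without other gates, 0.992 with TMM, 0.991 with DESeq2, 0.984 thinned and 0.923 over every deposited barcode; the 13 lower members became 7 without other gates. The S-phase ratio of experiment 1, 2.06, became 1.90 with stricter cells, 2.09 without the cells with the most UMIs, 2.18 without other gates, 1.89 with cells cut into 3 equal parts and 2.28 with an unthinned score. In experiment 2, 2.20 became 2.04, 2.11, 2.00, 1.94 and 2.33 in that order, and 2.31 and 2.13 with looser and stricter hashtags; its 26 higher members became 13 without other gates. With at least 4 markers, the early T gate was at 1450 and 1465 CPM, the innate lymphoid gate at 1718 and 1768 CPM, and the stromal gate of experiment 2 at 494 CPM. The cause of these shifts was not tested.

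With 1 hashtag left out at a time, the hashtag ratio ran from 1.29 to 1.36 and 1.35 to 1.48, the count at 2-fold from 3 to 5 (3 without hashtag 7 or 8 of experiment 1) and 1 to 3 (1 without hashtag 5 of experiment 2, 2 without hashtag 7 or 8), and the experiment ratio from 0.916 to 0.961. Members higher in experiment 2 numbered 2 to 3 and lower 13 to 16. The S-phase ratio ran from 1.97 to 2.23 and 2.12 to 2.31, with 22 to 26 and 24 to 28 members higher and 1 to 2 and 2 to 3 lower. Of 378 hashtag ratios of single named members, 315 stayed within the main interval, as did 420 of 550 experiment ratios and 200 of 294 S-phase ratios.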
